A study of Mus musculus with 24 samples.

Results

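The genes of this account are 10 genes of glucose uptake, glycolysis and lactate export and of the factor that controls many of them: *Hif1a*, *Slc2a1*, *Hk1*, *Hk2*, *Pfkfb3*, *Pfkp*, *Pgk1*, *Aldoa*, *Ldha* and *Slc16a3*. They were taken by gene symbol from 2 expression tables, with no threshold on their values, and are 10 of the 56691 genes listed in each table. Earlier results of these data were known when they were chosen. *Aldoa* is listed under 2 gene identifiers, so that the 10 genes fill 11 rows. The tables hold 24 RNA-seq libraries in 8 groups of 3. The line RAW264.7, which is macrophage-like and came from a mouse leukemia, makes up 4 groups, either wild type or edited with CRISPR-Cas9 at *Olfml3*, with the edited cells isolated as single-cell clones after lentiviral delivery of the guide RNA. The other 4 groups are bone marrow-derived macrophages (BMDMs), grown with L929 supernatant from 8-week-old male C57BL/6 mice, either wild type or *Olfml3*-/- after CRISPR-Cas9 editing of the germ line. In each cell type and genotype, cells were given PBS or lipopolysaccharide (LPS), an outer membrane component of Gram-negative bacteria, at 100 ng/mL for 4 h. The edited clones are described as knocked out on each allele, and which of them was sequenced is not stated. The study names the libraries of a group biological replicates, with no word on whether each came from its own culture or animal, so p-values measure the spread between libraries, which may be technical.

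HIF-1α, the product of *Hif1a*, is a transcription factor whose protein is degraded when oxygen is plentiful and builds up in low oxygen and in macrophages that sense bacteria. Its known targets include genes for each stage of glucose use. GLUT1 (*Slc2a1*) brings glucose into the cell, the hexokinases (*Hk1*, *Hk2*) trap it as glucose 6-phosphate, phosphofructokinase (*Pfkp* encodes the platelet form) commits it to glycolysis, and the enzyme encoded by *Pfkfb3* makes an activator of phosphofructokinase. Aldolase A (*Aldoa*) and phosphoglycerate kinase 1 (*Pgk1*) act further down, lactate dehydrogenase A (*Ldha*) turns pyruvate into lactate, and the transporter MCT4 (*Slc16a3*) exports lactate. Macrophages given LPS are known for a rise in glucose uptake and lactate release.

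Promoter sequences of 6 members are shown, because ACGTG is the core of the element that HIF-1 is known to bind. These 6 were called in at least 1 comparison below, as was every other member. Each window printed holds a match, and windows without a match, such as those of *Hk1* and *Pfkp*, are not printed. The display thus does not stand for all members. Printed are the 250 bases before an annotated start of transcription in RefSeq (GRCm38.p6), on the strand of the gene. Each ACGTG or its reverse complement CACGT is in capitals. CACGTG holds both, overlapping.
*Slc2a1* (chr4:119108495-119108744, plus strand): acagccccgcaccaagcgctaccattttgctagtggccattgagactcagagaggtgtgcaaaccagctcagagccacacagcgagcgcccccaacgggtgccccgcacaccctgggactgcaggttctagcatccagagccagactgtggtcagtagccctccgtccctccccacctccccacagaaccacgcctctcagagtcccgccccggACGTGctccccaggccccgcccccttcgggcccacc
*Hk2* (chr6:82774455-82774704, minus strand): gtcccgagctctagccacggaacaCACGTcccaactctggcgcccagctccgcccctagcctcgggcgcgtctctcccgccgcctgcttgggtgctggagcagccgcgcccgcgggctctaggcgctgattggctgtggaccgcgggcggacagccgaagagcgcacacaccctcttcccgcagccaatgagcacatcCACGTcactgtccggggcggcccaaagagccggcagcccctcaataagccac
*Pfkfb3* (chr2:11553930-11554179, minus strand): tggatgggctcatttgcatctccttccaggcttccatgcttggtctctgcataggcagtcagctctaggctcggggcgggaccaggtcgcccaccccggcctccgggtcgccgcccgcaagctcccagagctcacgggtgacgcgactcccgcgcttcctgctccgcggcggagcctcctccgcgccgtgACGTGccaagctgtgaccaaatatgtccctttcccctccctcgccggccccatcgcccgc
*Slc16a3* (chr11:120948817-120949066, plus strand): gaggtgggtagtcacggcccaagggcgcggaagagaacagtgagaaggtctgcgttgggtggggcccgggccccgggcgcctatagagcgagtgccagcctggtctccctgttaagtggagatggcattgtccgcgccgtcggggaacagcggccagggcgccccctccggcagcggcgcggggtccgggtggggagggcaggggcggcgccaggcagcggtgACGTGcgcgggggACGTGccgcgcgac
*Pgk1* (chrX:106186850-106187099, plus strand): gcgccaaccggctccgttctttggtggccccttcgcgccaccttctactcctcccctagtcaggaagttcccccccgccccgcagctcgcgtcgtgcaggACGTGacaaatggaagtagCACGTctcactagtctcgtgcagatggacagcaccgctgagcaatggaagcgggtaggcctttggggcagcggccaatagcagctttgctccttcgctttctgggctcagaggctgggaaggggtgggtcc
*Ldha* (chr7:46845554-46845803, plus strand): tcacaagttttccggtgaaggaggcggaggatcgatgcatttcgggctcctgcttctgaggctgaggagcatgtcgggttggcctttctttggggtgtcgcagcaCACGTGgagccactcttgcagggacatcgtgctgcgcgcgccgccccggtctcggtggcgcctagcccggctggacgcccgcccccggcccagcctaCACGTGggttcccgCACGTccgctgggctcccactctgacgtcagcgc

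All 10 genes were found in the RefSeq table, with 15 windows of this length. At least 1 match was present in a window of 8 of the 10 genes (80.0%) and in 10 of the 15 windows (66.7%), against 4998 of 27025 genes (18.5%) and 5444 of 32851 windows (16.6%) in the whole table. The members' windows had a median GC content of 66.4% and all windows 52.4%, and the part of base composition in the difference was not tested. *Hif1a* had 3 matches in its window, and *Hk1* and *Pfkp* had no match in theirs. The members are *Hif1a* and genes of a pathway with known HIF-1 targets, so a higher share was expected from the choice and is no test. Genes with more than 1 window also had more chances of a match. A match is a string of letters and not a measured site.

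Before the results, the libraries themselves need a description. Each RAW264.7 library held 11638273 to 16478616 counts and each BMDM library 17121240 to 22873094, and the members had 735 to 50044 counts per library in RAW264.7 and 600 to 16950 in BMDMs. *Olfml3* was near 0 in knockout BMDMs, at 0.03, 0.01 and 0.01 FPKM (fragments scaled by gene length and library size) against 0.61, 0.53 and 0.65 in wild-type cells with PBS. In RAW264.7 it went the other way, at 18.9, 18.8 and 18.3 FPKM in the libraries labelled knockout with LPS and 0.13, 0.13 and 0.29 in wild-type cells. RNA counts do not check whether the protein is lost, and the RAW264.7 groups are called by their labels here. Replicate 1 of the group labelled knockout with PBS stood apart from its replicates, since its counts gave chi-square values of 80.3 and 81.1 for each degree of freedom against them and other RAW264.7 replicate pairs 1.84 to 2.72. In BMDMs these values were 1.76 to 2.68, and 4.76 to 10.4 among wild-type libraries with LPS. Log2 differences of members that use replicate 1 of that group are given with and without it, as are the counts of called genes that change without it. The sum of 7 macrophage markers was 1054 to 1286 FPKM in libraries labelled knockout with PBS and 829 to 862 with LPS, against 2914 to 2945 and 2729 to 2870.1 in wild type. *Mertk* was at 0 in all 12 RAW264.7 libraries. In BMDMs all 7 markers were over 1 FPKM and the sum ran from 14693 to 17664 with PBS and from 11847 to 12686 with LPS. Markers of T and NK cells and erythroid cells summed to at most 0.23 FPKM in either cell type, those of fibroblasts and B cells to at most 1.73, and those of neutrophils and their precursors to at most 0.73 in RAW264.7 and 8.64 in BMDMs, where *Ly6g* was at 0 throughout.

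At rest, wild-type RAW264.7 cells carried the most RNA for the lower steps of the pathway. Ranked by mean FPKM, which is a level per length, the order was *Ldha* (935 ± 27.5, SD, n = 3), *Aldoa* (816 ± 18.0), *Pgk1* (159 ± 6.54), *Slc16a3* (80.6 ± 1.45), *Slc2a1* (65.7 ± 2.39), *Hk2* (27.4 ± 1.09), *Hk1* (25.6 ± 0.598), *Hif1a* (21.1 ± 0.177), *Pfkp* (21.0 ± 0.0473) and *Pfkfb3* (8.27 ± 0.188). Libraries of *Hk2* and *Hk1* overlapped, as did those of *Hif1a* and *Pfkp*, while the other neighbours in this order were apart. In wild-type BMDMs the order was *Aldoa* (246 ± 5.07), *Pgk1* (206 ± 3.35), *Ldha* (149 ± 2.93), *Hif1a* (25.4 ± 0.644), *Hk2* (12.9 ± 0.399), *Hk1* (12.3 ± 0.650), *Slc2a1* (12.1 ± 0.211), *Pfkp* (8.54 ± 0.111), *Pfkfb3* (6.92 ± 0.450) and *Slc16a3* (5.50 ± 0.353). Here *Hk2* overlapped *Hk1*, and *Hk1* overlapped *Slc2a1*. The cell types are set side by side with no test, since each was analysed by itself. The lactate exporter *Slc16a3* had a mean 14.7 times as high in RAW264.7 as in BMDMs, *Ldha* 6.26 times and *Slc2a1* 5.42 times, whereas *Pgk1* and *Hif1a* were 1.30 and 1.21 times as high in BMDMs. In bulk RNA a change in the make-up of the cells and a change of RNA per cell cannot be told apart. *Pgk1*, *Aldoa* and *Ldha* have near-identical copies elsewhere in the genome, and how reads shared with such copies were counted is not given, so that their levels carry that uncertainty. The other identifier named *Aldoa* lay between 0 and 4.37 FPKM in RAW264.7 and between 0 and 0.63 in BMDMs and is left out of the counts of members below.

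**Figure D1:**
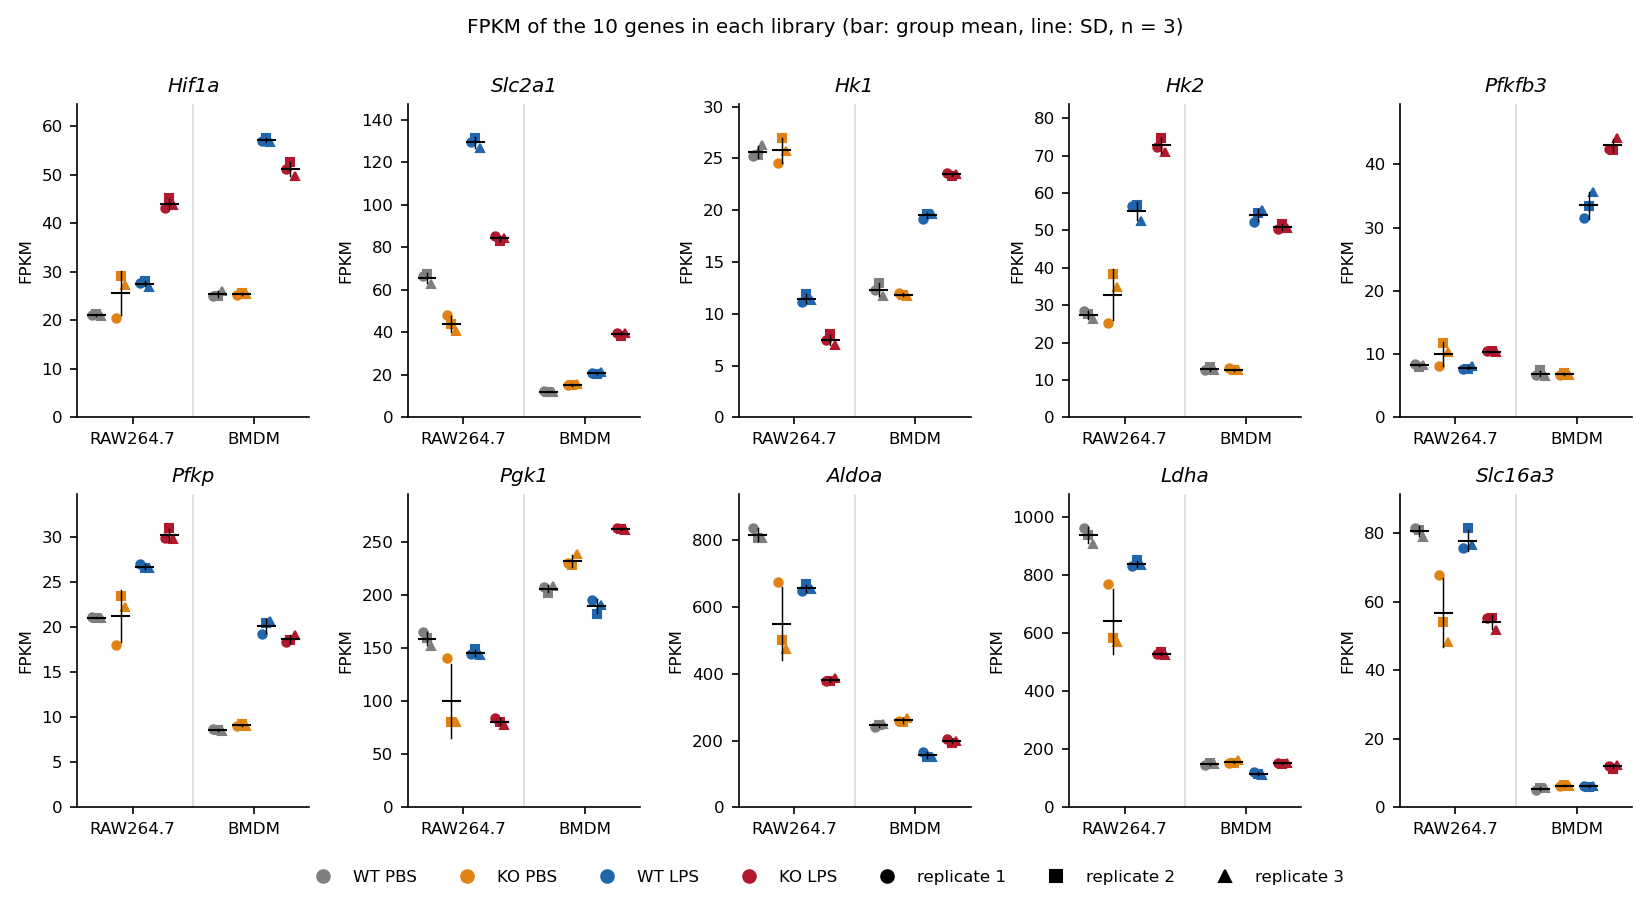
FPKM of each of the 10 genes in each of the 24 libraries, on an axis that starts at 0, with the group mean as a bar and the SD as a line (n = 3), colours for groups and symbols for replicates. In RAW264.7 the circle of the group KO PBS (replicate 1) lies toward the wild-type libraries for *Aldoa*, *Ldha*, *Slc16a3* and *Pgk1*, the last with 141 against 80.7 and 80.3 FPKM. The circle lies at or near the wild-type libraries for *Hif1a*, *Hk2* and *Pfkfb3* as well. For *Pfkfb3* it has 8.07 against 11.8 and 10.4 FPKM, with 8.05 to 8.39 in wild type. For *Pfkp* the circle does not lie toward them, with 18.0 against 23.4 and 22.2 FPKM and 21.0 to 21.1 in wild type. In BMDMs *Slc16a3* reaches 11.3 to 12.4 FPKM in the group KO LPS and stays between 5.09 and 6.45 in the other groups.

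LPS raised the members of the upper part of the pathway in BMDMs, but not every other gene of that part. A gene was called when limma, on log2(FPKM + 0.1) with Benjamini-Hochberg adjustment over all genes, gave an adjusted p under 0.05 and a fold of at least 1.5. In wild-type BMDMs 6 of the 10 members were called higher (*Hif1a*, *Slc2a1*, *Hk1*, *Hk2*, *Pfkfb3*, *Pfkp*) and *Aldoa* was called lower, where 7.94% of all genes tested were called higher and 32.5% lower. In knockout BMDMs 7 were called higher (the same 6 and *Slc16a3*) and no member was called lower, where 8.02% of all genes were called higher and 30.9% lower. These shares lean to the lower side, and so did the median log2 difference of genes with a mean of at least 1 FPKM, which was -0.73 in wild-type and -0.62 in knockout BMDMs, and -0.21 and -0.23 in RAW264.7 cells. edgeR on the counts with TMM scaling, which centres most genes near 0, called 8 members higher and 0 lower in wild-type BMDMs (25.1% of all genes higher, 30.9% lower) and 9 higher and 0 lower in knockout BMDMs (23.9% and 29.6%). DESeq2 gave the same counts of 8 and 9, and at an unadjusted p under 0.05 limma had all 10 members in wild-type cells and 9 in knockout cells. For DESeq2 and the unadjusted p, here and below, no share of all genes is given. Such counts are therefore read as no result about the genes counted. The values of both tests are therefore given for LPS. Among other upper genes in wild-type BMDMs, limma called *Gpi1*, *Pfkm*, *Adpgk*, *Pfkfb2* and *Pfkfb4* lower and none higher. There edgeR called *Pfkm*, *Pfkfb2* and *Pfkfb4* lower and *Hk3* higher.

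*Pfkfb3* was the member with the largest difference between LPS and PBS in BMDMs. It measured 6.77, 7.43 and 6.57 FPKM in wild-type BMDMs with PBS and 31.5, 33.4 and 35.7 with LPS. In knockout BMDMs it measured 6.78, 7.07 and 6.77 with PBS and 42.5, 42.3 and 44.2 with LPS. The LPS libraries lay far above the PBS libraries in both genotypes, with log2 differences of 2.26 ± 0.06 (SE; limma, adjusted p = 9.97e-10) and 2.63 ± 0.06 (adjusted p = 4e-10), or 3.05 and 3.32 by edgeR. *Pfkp* encodes a form of the enzyme whose activator the product of *Pfkfb3* makes. Its RNA rose from 8.66, 8.53 and 8.44 FPKM to 19.2, 20.5 and 20.6 in wild-type BMDMs. In knockout BMDMs *Pfkp* rose from 9.02, 9.20 and 9.02 to 18.3, 18.6 and 19.1. These are log2 differences of 1.22 ± 0.04 and 1.03 ± 0.04 by limma (adjusted p = 5.33e-09 and 2.07e-08) and 2.01 and 1.71 by edgeR.

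Of the hexokinases, the inducible form rose most. *Hk2* went from 12.7, 13.4 and 12.6 FPKM to 52.4, 54.6 and 55.5 in wild-type BMDMs and from 13.1, 12.6 and 12.6 to 50.5, 51.7 and 50.6 in knockout BMDMs. *Hk1*, the form that most tissues carry, went from 12.3, 13.0 and 11.7 to 19.2, 19.7 and 19.6 and from 11.98, 11.8 and 11.8 to 23.6, 23.3 and 23.5. Both genes had LPS libraries above all PBS libraries. The log2 differences of *Hk2* were 2.06 ± 0.04 and 1.99 ± 0.04 (limma, adjusted p = 2.19e-10 and 2.72e-10) and those of *Hk1* 0.66 ± 0.05 and 0.98 ± 0.05 (adjusted p = 7.57e-07 and 4.62e-08). edgeR gave 2.84 and 2.67 for *Hk2* and 1.43 and 1.65 for *Hk1*.

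*Hif1a* and the glucose transporter also rose with LPS in BMDMs. *Hif1a* measured 25.0, 25.0 and 26.1 FPKM with PBS and 57.0, 57.7 and 56.8 with LPS in wild-type cells, and 25.2, 25.6 and 25.5 against 51.1, 52.7 and 49.7 in knockout cells, with log2 differences of 1.17 ± 0.04 and 1.00 ± 0.04 (limma, adjusted p = 5.16e-09 and 1.73e-08, with edgeR 1.94 and 1.68). *Slc2a1* measured 12.3, 12.1 and 11.9 against 20.9, 20.4 and 21.2 in wild-type cells and 15.2, 15.0 and 15.9 against 39.5, 38.5 and 39.9 in knockout cells, with 0.78 ± 0.04 and 1.35 ± 0.04 (adjusted p = 1.18e-07 and 2.83e-09, and edgeR 1.55 and 2.03). LPS and PBS libraries did not overlap for either gene. *Slc16a3*, the lactate exporter, measured 5.09, 5.72 and 5.68 against 6.29, 6.07 and 6.38 FPKM in wild-type cells, where the log2 difference of 0.18 ± 0.06 was under the fold threshold (edgeR 0.96, called). In knockout cells it rose from 6.37, 6.45 and 6.36 to 12.2, 11.3 and 12.4, by 0.89 ± 0.06 (limma, adjusted p = 4.34e-07, and edgeR 1.57).

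The direction of the lower enzymes depended on the scaling. *Aldoa* measured 239.7, 248 and 249 FPKM with PBS and 167, 149.6 and 152 with LPS in wild-type BMDMs. The log2 difference was -0.65 ± 0.05 by limma (adjusted p = 2.44e-06) but 0.12 by edgeR and 0.07 relative to the median of expressed genes. *Ldha* (146, 151 and 151 against 123, 114 and 113) had -0.36 ± 0.05 by limma, 0.41 by edgeR and 0.37 relative to the median, and *Pgk1* (207, 202 and 209 against 196, 183 and 191) had -0.12 ± 0.04, 0.65 and 0.61. In knockout BMDMs the limma differences were -0.39 ± 0.05 for *Aldoa*, -0.04 ± 0.05 for *Ldha* and 0.17 ± 0.04 for *Pgk1*, and those of edgeR 0.28, 0.63 and 0.85. By limma *Aldoa* in wild-type cells is thus the call among these values, and by edgeR it is *Pgk1*, called higher in both genotypes, and *Ldha*, called higher in knockout cells.

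**Figure D2:**
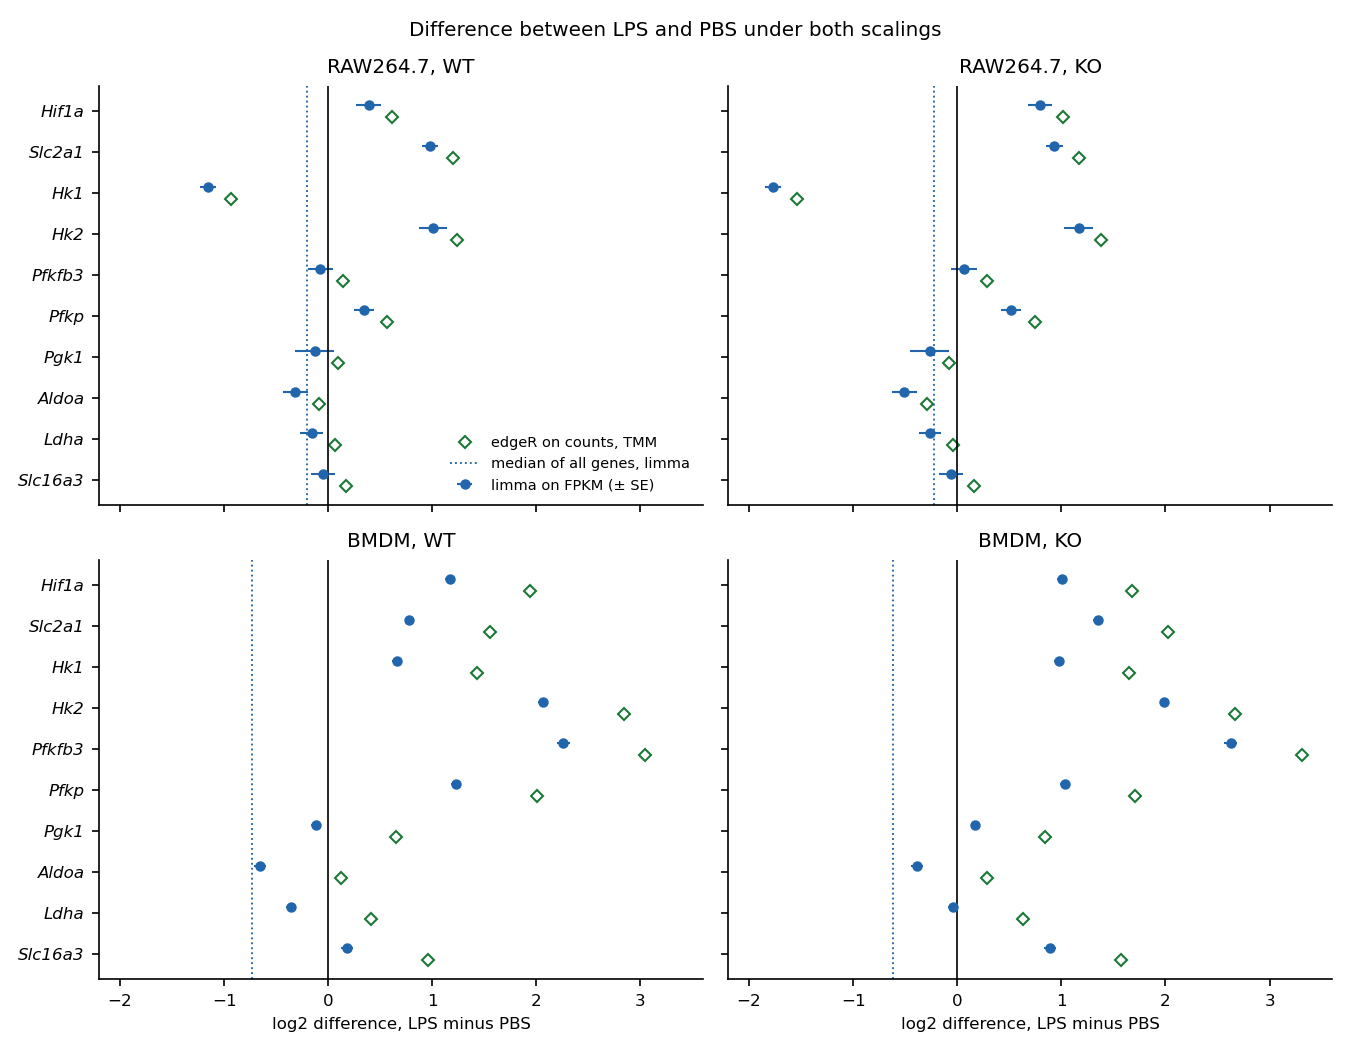
Log2 difference between LPS and PBS of each member, in 4 panels by cell type and genotype. Filled points are limma estimates on log2(FPKM + 0.1) with SE, open diamonds are edgeR estimates on counts, and the dotted line is the limma median of genes with a mean of at least 1 FPKM, which lies at -0.73 in wild-type and -0.62 in knockout BMDMs. In both genotypes *Hk1* lies below 0 in RAW264.7 and above 0 in BMDMs under both tests.

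In RAW264.7 cells LPS moved fewer members, and the hexokinases went in opposite directions. In wild-type cells *Slc2a1* and *Hk2* were called higher and *Hk1* lower, where 5.8% of all genes were called higher and 12.5% lower. In cells labelled knockout *Hif1a*, *Slc2a1* and *Hk2* were called higher and *Hk1* lower, where 7.45% of all genes were called higher and 14.6% lower. edgeR added *Hif1a* in wild-type cells (3 higher and 1 lower; 14.6% of all genes higher, 16.6% lower) and *Pfkp* in cells labelled knockout (4 higher and 1 lower; 17.6% and 20.3%). Without replicate 1 of the group labelled knockout with PBS the limma counts were again 3 higher and 1 lower.

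*Hk1* measured 25.3, 25.3 and 26.3 FPKM with PBS and 11.1, 11.9 and 11.3 with LPS in wild-type RAW264.7 cells, and 24.6, 27.0 and 25.8 against 7.47, 8.01 and 7.03 in those labelled knockout. The groups were far apart, and it fell by 1.16 ± 0.08 and 1.77 ± 0.08 on the log2 scale (limma, adjusted p = 2.62e-06 and 9.87e-08, and edgeR -0.94 and -1.54). *Hk2* rose from 28.5, 27.6 and 26.3 to 56.5, 56.7 and 52.5 in wild-type cells, by 1.01 ± 0.14 (adjusted p = 0.000408, and edgeR 1.23). In cells labelled knockout it rose from 25.1, 38.5 and 34.9 to 72.5, 74.8 and 71.0, by 1.17 ± 0.14 (adjusted p = 0.00012, and edgeR 1.39), or 0.99 without the replicate that stood apart. *Slc2a1* rose from 66.6, 67.6 and 63.0 to 130, 132 and 127, by 0.98 ± 0.08 (adjusted p = 1.01e-05, and edgeR 1.20). In cells labelled knockout it rose from 48.0, 44.0 and 40.5 to 85.3, 82.9 and 84.6, by 0.93 ± 0.08 (adjusted p = 1.07e-05, and edgeR 1.17). Without the replicate that stood apart the values of *Slc2a1* and *Hk1* in these cells were 1.00 and -1.80.

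*Hif1a* had LPS libraries above its PBS libraries in both genotypes. It measured 21.0, 21.2 and 20.9 FPKM with PBS and 27.8, 28.1 and 26.9 with LPS in wild-type RAW264.7 cells, with a log2 difference of 0.39 ± 0.12 by limma (under the fold threshold) and 0.61 by edgeR. In cells labelled knockout it measured 20.5, 29.1 and 27.4 against 43.2, 45.2 and 43.7, with 0.79 ± 0.12 by limma (adjusted p = 0.000592), 1.02 by edgeR and 0.64 by limma without the replicate that stood apart. *Pfkp* (21.1, 21.0 and 21.0 against 27.0, 26.5 and 26.5) had 0.34 ± 0.10 in wild-type cells and 0.52 ± 0.10 in cells labelled knockout, both under the fold threshold. *Pfkfb3*, the member that moved most in BMDMs, had -0.08 ± 0.12 and 0.06 ± 0.12 here, and its PBS and LPS libraries overlapped in both genotypes. *Slc16a3*, *Pgk1* and *Ldha* had limma differences between -0.26 and -0.05 and edgeR differences between -0.08 and 0.18, and *Aldoa* had -0.32 ± 0.12 and -0.51 ± 0.12 by limma and -0.09 and -0.29 by edgeR; none of the 4 was called by either test. Both signs occurred among these small values, as for *Slc16a3* with -0.05 by limma and 0.18 by edgeR in wild-type cells. Without the replicate that stood apart, cells labelled knockout had limma differences of 0.40 for *Pfkp*, -0.085 for *Pfkfb3*, 0.08 for *Slc16a3*, 0.0056 for *Pgk1*, -0.12 for *Ldha* and -0.35 for *Aldoa*, so that *Pfkfb3*, *Slc16a3* and *Pgk1* changed sign, and none of these was called.

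Between genotypes, RAW264.7 cells labelled knockout carried less RNA of the lower enzymes and transporters than wild-type cells. With PBS, *Pgk1* and *Aldoa* were called lower, where 4.79% of all genes were called higher and 3.77% lower. At the adjusted p alone *Slc2a1*, *Ldha* and *Slc16a3* were lower as well. The count was 0 when these 2 groups were fitted alone, and 0 without wild-type replicate 1 or without replicate 2 or 3 of the group labelled knockout. edgeR and DESeq2 called 4 members lower (*Slc2a1*, *Aldoa*, *Pgk1*, *Ldha*), and without replicate 1 of the group labelled knockout limma called 5 (these 4 and *Slc16a3*). For the counts of such alternative fits between genotypes, here and below, no share of all genes is given. They are therefore not set against all genes. With LPS, *Hif1a* was called higher and *Slc2a1*, *Hk1*, *Pgk1*, *Aldoa* and *Ldha* lower, where 9.73% of all genes were called higher and 7.6% lower, and edgeR and DESeq2 gave the same split of 1 and 5. The FPKM of the libraries labelled knockout summed to less, except that replicate 1 with PBS, at 356156, was near the wild type (357349 to 361580). Replicates 2 and 3 with PBS summed to 296109 and 295256. Scaling each library to the same sum (TPM), with replicate 1 included, moved the median log2 difference of genes with a mean of at least 1 FPKM. It was 0.20 with PBS and 0.21 with LPS, and 0.015 and -0.015 before. With that scaling the calls were 0 with PBS, and 3 higher (*Hif1a*, *Hk2*, *Pfkfb3*) and 1 lower (*Pgk1*) with LPS, and with quantile scaling 0 and 2 higher (*Hif1a*, *Hk2*) and 1 lower (*Hk1*). The sum of macrophage markers was lower in the same libraries, and its part in these differences was not tested.

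*Pgk1* had the largest difference. It measured 166, 159 and 152 FPKM in wild-type cells with PBS and 141, 80.7 and 80.3 in those labelled knockout, where replicate 1 lay nearer to the wild type than to its replicates. The log2 difference was -0.71 ± 0.19 (limma, adjusted p = 0.0387), and -0.98 (adjusted p = 5.59e-06) without that replicate. With LPS it measured 145, 149 and 143 against 84.1, 80.5 and 78.1, a difference of -0.85 ± 0.19 (adjusted p = 0.0108).

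*Aldoa* followed the same order, with 837, 807 and 805 FPKM in wild-type cells and 674, 499.9 and 474 in those labelled knockout with PBS, and 647, 668 and 652 against 379, 377 and 388 with LPS. Its log2 differences were -0.59 ± 0.12 (limma, adjusted p = 0.0138; -0.75 without replicate 1) and -0.78 ± 0.12 (adjusted p = 0.00188). *Ldha* measured 962, 937 and 907 against 768, 584 and 568 with PBS and 831, 849 and 833 against 528, 533 and 525 with LPS. It differed by -0.56 ± 0.11 (adjusted p = 0.0113, under the fold threshold; -0.70 without replicate 1) and by -0.66 ± 0.11 (adjusted p = 0.00278). Wild-type libraries lay above all libraries labelled knockout for these genes in both conditions.

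The transporters at both ends of the pathway were lower too. *Slc2a1* differed by -0.58 ± 0.08 with PBS (limma, adjusted p = 0.00145, a fold of 1.49, just under the threshold, or -0.64 and called without replicate 1) and by -0.62 ± 0.08 with LPS (adjusted p = 0.000631). *Slc16a3* measured 81.7, 81.1 and 78.9 FPKM against 68.0, 54.3 and 48.3 with PBS and 75.7, 81.5 and 76.5 against 55.2, 55.3 and 51.7 with LPS. Its differences of -0.52 ± 0.11 in each condition had an adjusted p of 0.0207 and 0.0106 and stayed under the fold threshold, and without replicate 1 the PBS value was -0.65 and called.

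The regulator and most upper enzymes did not share that direction. *Hif1a* was at 43.2 to 45.2 FPKM in LPS libraries labelled knockout and 26.9 to 28.1 in wild-type ones, a difference of 0.67 ± 0.12 (limma, adjusted p = 0.00401, and edgeR 0.65). With PBS its groups overlapped, with 0.27 ± 0.12, or 0.42 without replicate 1. *Hk2* and *Pfkfb3* had 0.40 ± 0.14 (adjusted p = 0.0634) and 0.41 ± 0.12 (adjusted p = 0.0353) with LPS, under the fold threshold. *Hk1* had a difference of 0.01 ± 0.08 with PBS (0.04 without replicate 1) and was lower with LPS by 0.61 ± 0.08 on the log2 scale (-0.61; adjusted p = 0.000621). The difference between these 2 values, the genotype by LPS interaction, was -0.61 ± 0.11 (limma, adjusted p = 0.0191, and edgeR -0.61), and *Hk1* was the member called among 10, where 1.95% of all genes were called in either direction. *Hk1* lost that call with TPM scaling (-0.57, adjusted p = 0.138), with a pseudocount of 0.01 (-0.62, adjusted p = 0.0725) and with a pseudocount of 1 (-0.56, under the fold threshold), as well as without any of 6 single libraries. Without replicate 1 of the PBS group labelled knockout *Hk1* kept it, at -0.65 (adjusted p = 0.00574).

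**Figure D3:**
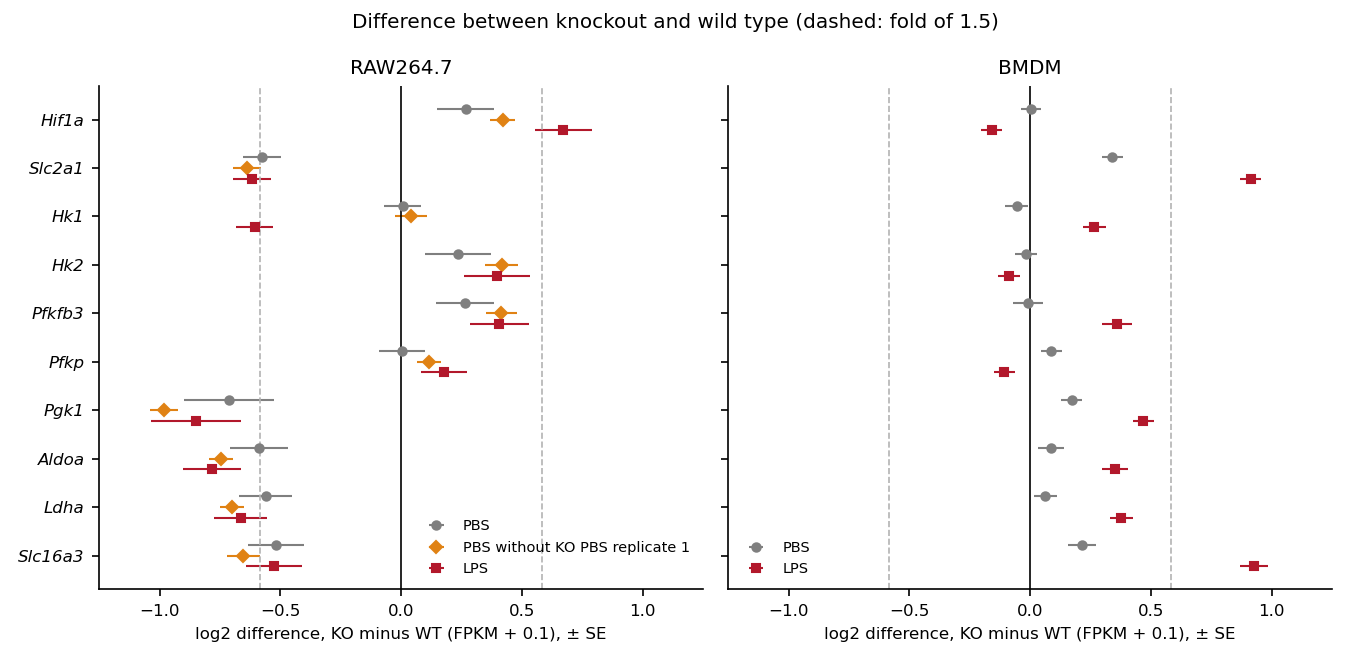
Log2 difference between knockout and wild type of each member, on log2(FPKM + 0.1), with SE, for RAW264.7 (left) and BMDMs (right). Grey circles are PBS, red squares LPS and, for RAW264.7, orange diamonds PBS without replicate 1 of the group labelled knockout; the dashed lines mark the fold of 1.5. In RAW264.7 *Pgk1*, *Aldoa*, *Ldha*, *Slc2a1* and *Slc16a3* lie to the left of 0 in all 3 series, and in BMDMs with LPS the same genes lie to the right, from 0.35 for *Aldoa* to 0.93 for *Slc16a3*.

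In BMDMs the genotypes were close at rest and apart after LPS. With PBS no member was called by limma, edgeR or DESeq2, where 0.901% of all genes were called higher and 0.905% lower by limma, although 3 members had an unadjusted p under 0.05. *Slc2a1* alone had an adjusted p under 0.05, with 0.34 ± 0.04 (limma, adjusted p = 0.0017), a fold under the threshold. With LPS *Slc2a1* and *Slc16a3* were called higher in knockout cells, where 3.23% of all genes were called higher and 1.53% lower, and edgeR and DESeq2 called the same number. At the adjusted p alone 8 members differed, 7 of them higher in knockout cells, and *Hif1a* was lower. The median of expressed genes was itself 0.14 higher in knockout BMDMs with LPS.

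*Slc16a3* measured 6.29, 6.07 and 6.38 FPKM in wild-type and 12.2, 11.3 and 12.4 in knockout BMDMs with LPS. The knockout libraries lay above all wild-type ones, with a log2 difference of 0.93 ± 0.06 (limma, adjusted p = 1.62e-05), 0.79 by edgeR and 0.79 relative to the median. With PBS it was 0.22 ± 0.06 (adjusted p = 0.0812). The interaction was 0.71 ± 0.08 (adjusted p = 0.00109, and edgeR 0.62), the call among the 10 members, where 2.91% of all genes were called in either direction. *Slc2a1* had 20.9, 20.4 and 21.2 FPKM in wild-type and 39.5, 38.5 and 39.9 in knockout BMDMs with LPS, a difference of 0.91 ± 0.04 (adjusted p = 5.9e-06, and edgeR 0.77). Its interaction of 0.57 ± 0.06 (adjusted p = 0.000725, and edgeR 0.47) was under the fold threshold.

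The enzymes between the transporters differed by less. *Pgk1* was at 264, 262 and 261 FPKM in knockout BMDMs with LPS and 196, 183 and 191 in wild-type ones, a difference of 0.47 ± 0.04 (limma, adjusted p = 0.00011, and edgeR 0.32). *Ldha* (152, 149.6 and 152 against 123, 114 and 113) had 0.38 ± 0.05, *Pfkfb3* 0.36 ± 0.06, *Aldoa* (205, 193 and 199.6 against 167, 149.6 and 152) 0.35 ± 0.05 and *Hk1* 0.27 ± 0.05, each with an adjusted p under 0.05 and groups that did not overlap. Their edgeR values were 0.23, 0.22, 0.21 and 0.12. *Hif1a* differed by -0.16 ± 0.04 (adjusted p = 0.0255, and edgeR -0.30), and *Hk2* and *Pfkp* by -0.09 ± 0.04 and -0.11 ± 0.04 (adjusted p = 0.259 and 0.145, and edgeR -0.23 and -0.25).

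Ratios of 2 genes within a library do not depend on its scaling. The ratio of *Hk2* to *Hk1* was 1.00 to 1.13 in wild-type RAW264.7 cells with PBS and 4.64 to 5.08 with LPS, and 1.02 to 1.42 and 9.34 to 10.1 in those labelled knockout. In BMDMs it was 1.03 to 1.08 and 2.73 to 2.82 in wild-type and 1.07 to 1.09 and 2.14 to 2.22 in knockout cells. With LPS the groups labelled knockout thus lay above the wild type in RAW264.7 and below it in BMDMs, with no overlap. *Pfkp* to *Pfkl*, the liver form of phosphofructokinase, went from 1.06 to 1.21 with PBS up to 2.97 to 3.39 with LPS in wild-type BMDMs but to 1.33 to 1.46 in knockout BMDMs. That gap came with *Pfkl*, at 6.47, 6.04 and 6.47 FPKM in wild-type and 13.8, 12.7 and 13.7 in knockout BMDMs with LPS (log2 difference 1.07, limma adjusted p = 1.12e-05).

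The lactate transporters parted in a like way. *Slc16a3* to *Slc16a1* (MCT1, which carries lactate in either direction) was 1.21 to 1.31 in wild-type and 3.06 to 3.52 in knockout BMDMs with LPS, and *Slc16a1* itself was at 5.20, 4.91 and 4.86 FPKM against 3.57, 3.71 and 3.52. In RAW264.7 the ratio was lower in groups labelled knockout, at 0.603 to 0.837 against 0.903 to 0.960 with PBS and 0.667 to 0.704 against 1.00 to 1.09 with LPS. *Slc2a1* to *Slc2a6*, a transporter of the same family on internal membranes, went from 2.58 to 2.99 with PBS down to 0.157 to 0.161 with LPS in wild-type BMDMs and to 0.270 to 0.282 in knockout ones. There *Slc2a6* rose from a mean of 4.38 to 131 FPKM in wild-type and from 6.59 to 142 in knockout cells, a larger difference than that of *Slc2a1*. *Ldha* to *Ldhb*, the form that favours pyruvate, was 22.3 to 24.8 with PBS and 27.3 to 28.6 with LPS in wild-type BMDMs, and 24.1 to 29.3 with PBS and 36.0 to 43.4 with LPS in knockout BMDMs, and no ratio is given in RAW264.7, where *Ldhb* was between 0 and 0.16 FPKM.

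**Figure D4:**
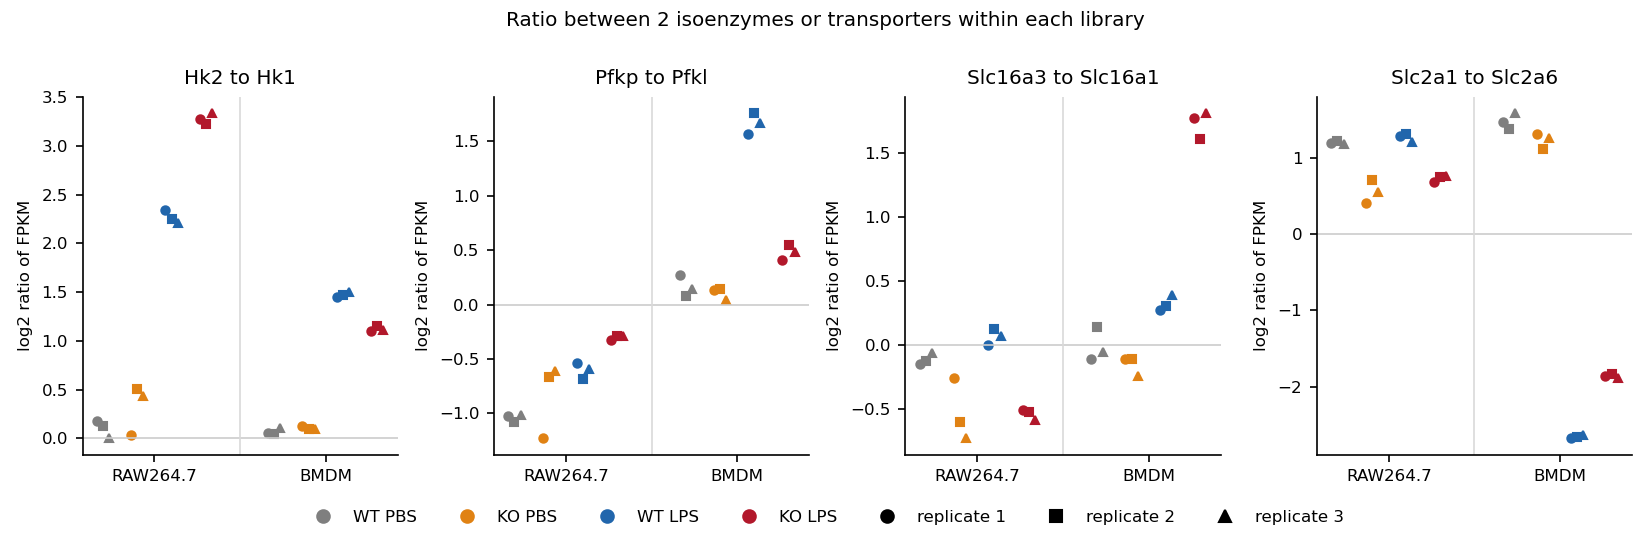
Log2 ratio of FPKM between 2 related genes in each library, by group, for the hexokinases, the phosphofructokinases, the lactate transporters and the glucose transporters. With LPS the *Hk2* to *Hk1* ratio is 9.34 to 10.1 in RAW264.7 labelled knockout and 2.14 to 2.22 in knockout BMDMs, and *Slc16a3* to *Slc16a1* is highest in knockout BMDMs.

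Of the other glycolytic enzymes, 19 genes, more were called lower than higher with LPS. In RAW264.7 limma called 0 higher and 6 lower in wild-type cells (12 at an unadjusted p under 0.05, and edgeR and DESeq2 0 higher and 5 lower), where 12.5% of all genes were called lower. In those labelled knockout it called 1 higher and 9 lower (edgeR 3 and 5, and limma 2 and 8 without the replicate that stood apart), where 14.6% of all genes were called lower. edgeR, which left out genes with few counts, tested 17 of the list and called 16.6% and 20.3% of all its genes lower. For limma the share among expressed RAW264.7 genes is not given. The RAW264.7 counts of lower genes with LPS, here and in the lists below, are therefore read as no result about the lists. Among them *Pfkm*, the muscle phosphofructokinase, went from a mean of 9.17 to 3.87 and from 7.86 to 2.29 FPKM, and *Bpgm*, which makes 2,3-bisphosphoglycerate, from 6.27 to 2.93 in wild-type cells. The median log2 difference of the list was -0.46 and -0.61, against -0.05 and -0.07 over all genes tested and -0.21 and -0.23 over genes with a mean of at least 1 FPKM. In BMDMs limma called 0 higher and 9 lower of 18 tested in wild-type (18 at an unadjusted p under 0.05) and 1 higher (*Pfkl*) and 8 lower in knockout cells. Of all genes 32.5% and 30.9% were called lower there, and of genes at 1 FPKM or more in at least 3 libraries 56.4% in wild-type cells, so that these counts are read as no result about the list. Its medians of -0.59 and -0.41 lay below those of all genes (-0.30 and -0.28) and above those of genes with a mean of at least 1 FPKM (-0.73 and -0.62), while edgeR called 1 higher and 4 lower and 3 higher and 4 lower, with medians of 0.18 and 0.26. *Pfkfb4* and *Pfkfb2*, which encode enzymes of the same family as *Pfkfb3*, fell where *Pfkfb3* rose, *Pfkfb4* from a mean of 9.16 to 1.14 and *Pfkfb2* from 2.04 to 0.223 FPKM in wild-type BMDMs (log2 differences of -2.90 and -2.73 by limma, -2.23 and -2.40 by edgeR).

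Between genotypes the same list leaned as the members did. In RAW264.7 with PBS it had 2 higher (*Adpgk*, *Pfkfb2*) and 3 lower (*Aldoc*, *Hk3*, *Eno1*), and with LPS 2 higher and 7 lower, with medians of -0.24 and -0.40 against 0.02 and 0.00 over all genes. Of all genes limma called 4.79% higher and 3.77% lower with PBS, and 9.73% and 7.6% with LPS. Without replicate 1 of the group labelled knockout the PBS counts were 2 and 6, and under TPM scaling they were 2 and 0 with PBS and 3 and 2 with LPS. The enolase *Eno1* was at a mean of 169 FPKM in wild-type and 108 in cells labelled knockout with PBS. In BMDMs with LPS *Pfkl*, *Pfkfb4*, *Pgam1* and *Eno1* were called higher in knockout cells and no gene lower, of 18 tested (11 at an unadjusted p under 0.05, and edgeR and DESeq2 3 higher and 0 lower, by edgeR *Pfkl*, *Pfkfb4* and *Pfkfb2*), with a median of 0.37 against 0.04. Of all genes limma called 3.23% higher and 1.53% lower in that comparison. *Pgam1*, the phosphoglycerate mutase, had a mean of 92.4 FPKM in wild-type and 142 in knockout cells.

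Genes on each side of glycolysis were read from lists as well. Of 8 other glucose, lactate and pyruvate transporters, *Slc2a6* was called higher with LPS in both cell types and both genotypes. *Slc16a7* (MCT2) and *Slc2a8* were called lower there, and *Slc2a3* (GLUT3) was called lower in BMDMs, from a mean of 1.77 to 0.22 FPKM in wild-type and from 1.86 to 0.280 in knockout cells. In RAW264.7 labelled knockout with PBS *Slc16a7* was higher, at 3.29 against 1.13 FPKM, and basigin (*Bsg*), the partner that MCT1 and MCT4 need at the cell surface, was lower, at 165 against 245 (log2 difference -0.61, limma adjusted p = 0.0356; -0.42 and not called under TPM scaling). Of the 8, limma called 1 higher and 1 lower in that comparison, and 1 and 3 without the replicate that stood apart. With all libraries limma called 4.79% of all genes higher and 3.77% lower there. The next list held 11 genes of pyruvate dehydrogenase, its kinases and its phosphatases. Of these, limma called the kinase genes *Pdk1* and *Pdk2* and the phosphatase gene *Pdp1* lower with LPS in both cell types and genotypes. *Pdk1*, an inhibiting kinase and HIF-1 target, went from a mean of 12.7 to 4.99 FPKM in wild-type BMDMs (-1.34 by limma; -0.58 by edgeR, under the fold threshold). The counts with LPS were 0 higher and 3 lower in each RAW264.7 genotype, 1 higher and 5 lower in wild-type BMDMs and 0 higher and 3 lower in knockout BMDMs (by edgeR 0 and 3, 2 and 2, and 1 and 2). Of all genes limma called 12.5% lower in wild-type RAW264.7 cells and 14.6% in those labelled knockout, and 32.5% and 30.9% in wild-type and knockout BMDMs. The BMDM counts are read as no result about the list. Between genotypes *Pdp2* was called higher in RAW264.7 labelled knockout with LPS, at a mean of 9.01 against 5.88 FPKM. In knockout BMDMs with LPS *Pdk1* was higher, at 7.68 against 4.99 FPKM, and *Pdk3* lower, at 5.09 against 9.19.

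The 9 HIF subunits and regulators include the prolyl hydroxylases that mark HIF-1α for degradation. One of these, *Egln1*, fell with LPS in RAW264.7, from a mean of 16.8 to 8.24 FPKM in wild-type cells and from 13.8 to 5.52 in those labelled knockout. In BMDMs with LPS it was higher in knockout cells, at 11.3 against 5.72 FPKM (log2 difference 0.97, limma adjusted p = 6.25e-06, and edgeR 0.84). *Egln3* was at a mean of 1.35 FPKM in wild-type RAW264.7 cells with PBS and 0.0167 in those labelled knockout. *Epas1* (HIF-2α) and *Hif1an* were called lower with LPS in BMDMs by limma, with -1.09 and -0.70 on the log2 scale in knockout cells (edgeR -0.48 and -0.04). The list had 0 higher and 4 lower with LPS in wild-type BMDMs (7 at an unadjusted p under 0.05) by limma and 2 higher and 1 lower by edgeR, and in knockout BMDMs 0 and 2 against 2 and 0. Of all genes limma called 32.5% and 30.9% lower in these genotypes, so the counts are read as no result about the list.

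HIF target genes outside glycolysis, 15 of them in the tables, moved in both directions with LPS, and the counts depended on the test. In RAW264.7 0 were higher and 6 lower in wild-type cells (12 at an unadjusted p under 0.05, and edgeR 2 and 5) and 2 were higher and 8 lower in those labelled knockout (edgeR 3 and 7, and limma 1 and 6 without the replicate that stood apart). In BMDMs 2 were higher and 9 lower in wild-type and 4 higher and 8 lower in knockout cells, against 5 and 4 in each genotype by edgeR. Of all genes limma called 12.5% lower in wild-type RAW264.7 cells and 14.6% in those labelled knockout, and 32.5% and 30.9% in wild-type and knockout BMDMs. The share was larger among expressed genes, as given above for wild-type BMDMs, so the BMDM counts are read as no result about the list. The angiogenic factor *Vegfa* went from a mean of 22.5 to 2.12 FPKM in wild-type BMDMs (-3.35 by limma, -2.64 by edgeR), and *Ddit4*, an inhibitor of mTORC1, from 1.79 to 0.0967. Between genotypes 4 were lower in RAW264.7 labelled knockout with PBS and 7 with LPS and 0 higher in either (9 and 11 at an unadjusted p under 0.05, and edgeR 5 and 7 lower, DESeq2 5 and 7). Under TPM scaling these were 4 lower with PBS and 2 higher and 5 lower with LPS. Of all genes limma called 3.77% lower with PBS and 7.6% with LPS before that scaling. *Ndrg1* was at a mean of 20.9 FPKM in wild-type and 5.49 in cells labelled knockout with PBS, and the lipid droplet protein gene *Plin2* at 13.9 and 3.69. In BMDMs with LPS *P4ha2*, *Vegfa*, *Kdm3a* and *Bnip3* were higher in knockout cells and no gene was lower (edgeR and DESeq2 2 and 0), with *Bnip3* at 18.0 against 10.4 FPKM. Of all genes limma called 3.23% higher and 1.53% lower there.

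Of 8 genes of the pentose phosphate pathway, *G6pdx*, *Pgd* and *H6pd* were called lower with LPS in wild-type RAW264.7 cells and *Taldo1*, *Pgd*, *G6pdx* and *Tkt* in those labelled knockout by limma. By edgeR *Rpe* was called higher in each genotype, and the lower calls were *Pgd* and *H6pd* in wild-type cells and *Pgd* and *G6pdx* in those labelled knockout, where limma without the replicate that stood apart had 2 lower. In BMDMs 1 was higher and 6 lower in wild-type and 0 and 5 in knockout cells by limma and 1 and 1 in each by edgeR. Of all genes limma called 12.5% lower in wild-type RAW264.7 cells and 14.6% in those labelled knockout, and 32.5% and 30.9% in wild-type and knockout BMDMs. The BMDM counts of this list and of the gluconeogenesis genes below are read as no result about the lists. *Taldo1*, the transaldolase, was lower in RAW264.7 labelled knockout, at 109 against 192 FPKM with PBS and 65.2 against 138 with LPS. With PBS limma called 1 gene of the pentose phosphate list lower between genotypes, and 4 without the replicate that stood apart. With all libraries limma called 3.77% of all genes lower there. Of 6 gluconeogenesis genes, 5 were tested, and *Pcx* and *Pck2* were called lower with LPS in both cell types and genotypes by limma. By edgeR both were called in BMDMs, *Pcx* alone in wild-type RAW264.7 cells and neither in those labelled knockout, where limma without the replicate that stood apart called 1 gene. *Pck2* went from 5.50 to 0.923 FPKM in wild-type BMDMs. In knockout BMDMs with LPS *Pck2* was called higher than in wild type, at 1.63 FPKM, and no pentose phosphate gene and no listed transporter was called (6 and 2 at an unadjusted p under 0.05, and edgeR and DESeq2 0 and 1). In BMDMs with PBS 0 of the 73 genes tested in these 7 lists were called between genotypes by limma (19 at an unadjusted p under 0.05, and edgeR 1, DESeq2 0). Of all genes limma called 0.901% higher and 0.905% lower there, and 3.23% and 1.53% with LPS. Of the LPS-induced genes *Tnf*, *Il1b*, *Il6* and *Nos2*, all 4 rose with LPS in each cell type and genotype, as with *Il1b* from a mean of 1.26 to 723 FPKM in wild-type BMDMs and to 1609 in knockout BMDMs.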

How the data were processed

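Poly(A) RNA was sequenced by the authors in 3 libraries for each of 8 groups on Illumina or MGI instruments. The deposited tables, 1 per cell type, hold raw counts per gene, which were not normalized by the authors, and FPKM values, which the authors scaled per kilobase of exonic length and by the library's counted reads. FPKM recomputed from the counts lay within 1% of 99.9% of the deposited values in RAW264.7 and 99.5% in BMDMs. Aligner and counting program: not given in the sources used here. Labels give mm10 as the build, but gene coordinates in the tables do not match that build, so none are printed. Groups were taken from sample titles, which a genotype tag contradicts in 12 libraries.

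Differences were tested with limma 3.58.1 (R 4.3.3) on log2(FPKM + 0.1), a scale that understates changes of low genes, in 1 fit of 4 group means per cell type. Genes above 0 in at least 1 library entered (26740 in RAW264.7, 26973 in BMDMs), and p-values were adjusted by Benjamini-Hochberg over all of them. edgeR 4.0.16 (quasi-likelihood, TMM) and DESeq2 1.42.0 were run on the counts as alternatives, and the code was tested on simulated data. Other alternatives were the pseudocount, the filter, a trend of variance on intensity, scaling by TPM, by median ratios or by quantiles, the 2 groups alone, a replicate block and leaving out each library. The 10 members are named in each comparison. Of each pathway list, up to 3 called genes with the largest difference and a mean of at least 1 FPKM in either group were to be named, with the other gene of each ratio and *Olfml3*. *Adpgk*, *Aldoc*, *Pdk2*, *Tkt*, *Kdm3a* and others named beyond this, such as *Slc2a8* in BMDMs, were chosen after their values were seen. The members and lists were chosen with earlier results of these data known.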

Additional observations from a re-analysis of the deposited data

Results flagged for a closer look

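A pair of members had a difference between genotypes that itself differed between LPS and PBS by the limma interaction term, at an adjusted p under 0.05 and a fold of at least 1.5: *Hk1* in RAW264.7 cells, at -0.61 on the log2 scale (adjusted p = 0.0191, limma), and *Slc16a3* in BMDMs, at 0.71 (adjusted p = 0.00109, limma). At the adjusted p alone 6 members passed in BMDMs, with *Pfkfb3*, *Slc2a1*, *Hk1*, *Pgk1* and *Ldha* beside *Slc16a3*. That count was 2 with a pseudocount of 0.01, 3 with the replicate block, 4 under quantile scaling and 10 by edgeR. No share of all genes is given at this threshold, so the count is read as no result about the members. *Hk1* in RAW264.7 was not called with TPM scaling, with pseudocounts of 0.01 and 1 or without any of 6 single libraries, and *Slc16a3* in BMDMs was not called under quantile scaling.

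The other values are listed because the libraries of one cell type moved one way and those of the other the opposite way, with no overlap between the groups compared. The share of all genes that do so was not counted, so the length of this list is read as no result about the members. In BMDMs *Slc2a1* alone had an adjusted p under 0.05 between genotypes with PBS, and *Hk2* and *Pfkp* did not with LPS (limma). The median of genes with a mean of at least 1 FPKM was there 0.03 with PBS and 0.14 with LPS. These differences between the cell types were not tested, since each cell type was fitted by itself. The RAW264.7 groups are called by labels that their *Olfml3* levels go against. Between genotypes with PBS the log2 differences in RAW264.7 and in BMDMs were -0.58 and 0.34 for *Slc2a1*, -0.71 and 0.17 for *Pgk1*, -0.59 and 0.086 for *Aldoa*, -0.56 and 0.062 for *Ldha* and -0.52 and 0.22 for *Slc16a3*. With LPS they were 0.67 and -0.16 for *Hif1a*, -0.62 and 0.91 for *Slc2a1*, -0.61 and 0.27 for *Hk1*, 0.40 and -0.088 for *Hk2*, 0.18 and -0.11 for *Pfkp*, -0.85 and 0.47 for *Pgk1*, -0.78 and 0.35 for *Aldoa*, -0.66 and 0.38 for *Ldha* and -0.52 and 0.93 for *Slc16a3*. Between LPS and PBS *Hk1* had -1.16 and 0.66 in wild-type cells and -1.77 and 0.98 in those labelled knockout.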

How the results depend on the processing

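Among 1280 values of members under alternatives that kept all libraries, 52 passed the threshold anew, 20 no longer passed it and 16 changed direction with an adjusted p under 0.05 before or after. Another 33 changed sign with no adjusted p under 0.05, none of them called. Among 740 values with 1 library left out these numbers were 9, 16, 0 and 24. The 16 were in BMDMs with LPS against PBS. In wild-type BMDMs *Pgk1* was 0.68, 0.65 and 0.68, *Aldoa* 0.15, 0.12 and 0.15 and *Ldha* 0.44, 0.41 and 0.45 under median-ratio scaling, edgeR and DESeq2, and in knockout BMDMs *Aldoa* was 0.31, 0.28 and 0.31 and *Ldha* 0.65, 0.63 and 0.65, while *Pgk1* was -0.15 under quantile scaling. The members called between genotypes in RAW264.7 with PBS numbered 5 at the adjusted p alone, 1 with a pseudocount of 0.01, 0 with TPM scaling, quantile scaling or the 2 groups alone, and 4 with median-ratio scaling, edgeR or DESeq2. With 1 library left out they ranged from 0 to 5, with 5 without replicate 1 of the group labelled knockout, 1 without wild-type replicate 2 and 0 without wild-type replicate 1 or replicates 2 or 3 of the group labelled knockout. With LPS they were 3 under quantile scaling and 5 to 6 with 1 library left out. In RAW264.7 with LPS against PBS, 5 were called at the adjusted p alone in wild-type cells and 4 to 5 with 1 library left out in those labelled knockout. The RAW264.7 interaction gave 0 with pseudocounts of 0.01 and 1 and with TPM scaling, and 0 to 1 with 1 library left out, with 0 without wild-type PBS replicate 1 or 2, wild-type LPS replicate 2 or 3, PBS replicate 2 labelled knockout or LPS replicate 3 labelled knockout. In BMDMs the adjusted p alone gave 1 with PBS, 8 with LPS and 6 for the interaction. With the fold threshold the interaction gave 0 under quantile scaling and 1 to 2 with 1 library left out (2, with *Slc2a1*, without knockout PBS replicate 3, wild-type LPS replicate 3 or knockout LPS replicate 2). Where no value shows it, the cause was not tested. Leaving out replicate 1 of the PBS group labelled knockout in every RAW264.7 comparison was chosen after seeing the data. Replicate numbers did not pair the libraries: deviations of same-numbered libraries correlated at -0.039 to 0.084 in RAW264.7 and -0.058 to 0.071 in BMDMs, and the fit with the replicate block called 2, 6, 3, 4 and 1 members in RAW264.7 and 0, 2, 7, 7 and 1 in BMDMs, in the order genotype with PBS, genotype with LPS, LPS in wild type, LPS in knockout and interaction. With 3 libraries a group, a difference within the spread was not detectable and is not shown to be absent.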
